A study of Mus musculus with 24 samples.

Results

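The genes described here are the mouse zinc finger genes with symbols from Zfp900 to Zfp999. They were taken as the rows of the single-nucleus RNA (snRNA-seq) count table whose symbol is Zfp followed by a 3-digit number that begins with 9 and that had at least 1 count in each strain. Of 33902 symbols in the table, 62 had such a name and 55 met the rule. Of the other 7 symbols, 6 had counts in D2 only, and Zfp965 had 69 counts in B6 only. The 6 were led by Zfp939, annotated as a transcribed pseudogene, with 1840 counts. For these symbols a difference of strain, reference or gene list cannot be told apart. The samples were ventral hippocampus of adult male mice, 10 to 16 weeks old, of the inbred strains C57BL/6J (B6) and DBA/2J (D2). No animal was treated or carried an engineered allele. Each replicate pooled tissue from about 2 animals, and each strain had 2 snRNA-seq and 2 snATAC-seq libraries, so p-values rest on the spread between 2 pools per strain. Nuclei for snRNA-seq were sorted towards 75% NeuN-positive and 25% NeuN-negative, so shares of cell types are those of the sort.

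Most genes of this name range encode proteins with an array of C2H2 zinc fingers, many of them behind a KRAB domain. Proteins of the KRAB type bind DNA through their fingers and recruit the corepressor TRIM28 (KAP1), which brings the histone methyltransferase SETDB1 and heterochromatin proteins to the site. They are best known for silencing transposable elements and for holding imprinted regions in their methylated state. Their genes lie in clusters that expanded by duplication, many of them in rodents only, and neighbours can be close in sequence, so reads of near-identical copies may be assigned to the wrong member or dropped.

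All 55 members had a GENCODE vM21 entry as a protein-coding gene, on 12 chromosomes. Of these, 39 lay in 6 groups of neighbours joined at gaps of up to 2 Mb and 16 lay alone. The largest groups were 12 members within 2.34 Mb of chromosome 4, 10 within 1.3 Mb of chromosome 17 and 8 within 2.71 Mb of chromosome 2 (mm10). RefSeq promoter entries (GRCm38.p6) were found for 48 of the 55 members, 55 promoters in all. Their CG content was low for the family. The 250 bases before the start held a median of 6 CG dinucleotides in the members, 6 in all genes and 13 in the other numbered Zfp genes. At least 10 CG were present in 20.0% of member promoters, 37.8% of all promoters and 63.4% of those of other numbered Zfp genes.

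Member promoters also shared sequence. Printed first are 4 promoters that hold the same 14-base run, CCTGCCAGTCAGAA, shown in capitals. The run was defined as the longest stretch common to the promoters of Zfp951 and Zfp970, which are shown because the accessible region at the start of each had no count in D2. The other 2 stand for the 4 members of chromosome 7 that hold it. All are the 250 bases before the RefSeq start in the B6 reference, and the run began 39 bases before the start of Zfp951, 47 before that of Zfp970, 90 before that of Zfp975 and 46 before that of Zfp977. They lie at chr5:104860069-104860318, minus strand (Zfp951), chr2:177464492-177464741, plus strand (Zfp970), chr7:42692719-42692968, minus strand (Zfp975) and chr7:42592546-42592795, minus strand (Zfp977).
Zfp951: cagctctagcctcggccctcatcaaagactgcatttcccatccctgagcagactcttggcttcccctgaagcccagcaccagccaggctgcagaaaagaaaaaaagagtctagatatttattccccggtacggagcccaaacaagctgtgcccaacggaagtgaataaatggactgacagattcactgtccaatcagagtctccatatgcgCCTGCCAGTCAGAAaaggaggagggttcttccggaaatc
Zfp970: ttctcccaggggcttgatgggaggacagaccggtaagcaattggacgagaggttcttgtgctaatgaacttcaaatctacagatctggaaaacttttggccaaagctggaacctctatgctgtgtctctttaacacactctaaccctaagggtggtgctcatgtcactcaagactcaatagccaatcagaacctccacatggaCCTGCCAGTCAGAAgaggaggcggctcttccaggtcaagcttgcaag
Zfp975: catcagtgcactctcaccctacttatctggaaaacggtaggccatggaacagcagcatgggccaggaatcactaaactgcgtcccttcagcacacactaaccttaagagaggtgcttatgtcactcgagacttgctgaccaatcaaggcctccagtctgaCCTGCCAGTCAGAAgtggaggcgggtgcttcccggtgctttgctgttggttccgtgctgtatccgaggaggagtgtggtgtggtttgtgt
Zfp977: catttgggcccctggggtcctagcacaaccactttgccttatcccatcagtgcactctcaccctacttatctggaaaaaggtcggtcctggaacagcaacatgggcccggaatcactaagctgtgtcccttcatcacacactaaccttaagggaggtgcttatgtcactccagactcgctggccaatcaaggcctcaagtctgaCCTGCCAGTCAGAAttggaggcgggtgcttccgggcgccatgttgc

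The run was searched on both strands in these 250-base windows. It was found in 13 of 55 member promoters (23.6%), of 12 genes, against 1 of 315 promoters of other numbered Zfp symbols, that of Zfp965, and 42 of 32851 promoters of all genes (0.128%). Of the 12 members, 7 lie on chromosome 2, 4 on chromosome 7 and 1, Zfp951, on chromosome 5. A CCAAT box (CCAAT, both strands) was found in 76.4% of member promoters, 42.5% of those of other numbered Zfp symbols and 33.9% of all. The run was chosen from 2 members, so these shares are a description of related sequences. In the RNA comparison of the strains, 3 of the 11 tested members with the run were higher in D2 and 2 were lower, where 17.7% and 18.4% of all symbols with counts in both strains were called. One of the 3, Zfp936, passed the filter on low counts through D2 only. Zfp951, also among the 3, and Zfp970, among the 2, defined the run and were picked for a strain difference in accessibility. The remaining calls were Zfp975, higher, and Zfp977, lower, so no excess can be read from these counts.

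A second set of 4 promoters, with each CG in capitals, belongs to members whose strain difference is described further on. Zfp949 had the largest number of cell types with a difference, Zfp943 lies head to head with Zfp942, and Zfp947 and Zfp984 had a start region that differed in accessibility. They lie at chr9:88547770-88548019, plus strand (Zfp949), chr17:21962309-21962558, plus strand (Zfp943), chr17:22165978-22166227, minus strand (Zfp947) and chr4:147809789-147810038, minus strand (Zfp984). The Zfp943 promoter held 17 CG, at the top of the members' range, and those of Zfp949, Zfp947 and Zfp984 held 6, 4 and 7. The RefSeq start of Zfp947 lies 213 bases from the GENCODE start that was used for the accessibility comparison.
Zfp949: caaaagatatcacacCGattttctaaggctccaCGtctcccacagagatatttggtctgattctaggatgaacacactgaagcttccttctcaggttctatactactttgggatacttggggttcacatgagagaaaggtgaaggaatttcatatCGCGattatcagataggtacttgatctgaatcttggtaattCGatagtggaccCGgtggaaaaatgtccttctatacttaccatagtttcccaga
Zfp943: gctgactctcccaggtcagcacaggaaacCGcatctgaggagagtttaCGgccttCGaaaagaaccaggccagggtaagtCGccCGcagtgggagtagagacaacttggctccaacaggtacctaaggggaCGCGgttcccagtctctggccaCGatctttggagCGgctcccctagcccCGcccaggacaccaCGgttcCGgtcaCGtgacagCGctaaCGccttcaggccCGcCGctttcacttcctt
Zfp947: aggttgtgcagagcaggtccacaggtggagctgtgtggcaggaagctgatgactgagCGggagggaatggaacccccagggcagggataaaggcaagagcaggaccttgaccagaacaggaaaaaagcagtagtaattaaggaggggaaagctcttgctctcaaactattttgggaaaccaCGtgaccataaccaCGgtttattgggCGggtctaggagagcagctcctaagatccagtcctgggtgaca
Zfp984: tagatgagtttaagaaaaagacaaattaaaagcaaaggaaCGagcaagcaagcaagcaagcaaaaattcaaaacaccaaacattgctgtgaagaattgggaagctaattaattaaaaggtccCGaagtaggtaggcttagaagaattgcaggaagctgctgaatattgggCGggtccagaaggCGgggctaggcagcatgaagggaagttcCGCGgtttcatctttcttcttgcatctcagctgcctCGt

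The 4 snRNA-seq libraries held between 43048686 and 56452272 counts from 6312 to 8707 nuclei, already summed by the authors over the nuclei of 17 cell types. The members took 0.0679% and 0.0682% of the counts in B6 and 0.0697% and 0.0727% in D2. The 2 D2 libraries were both above the 2 B6 libraries in this share. Deposited cell type names went with their markers: those of astrocytes, oligodendrocytes, their precursors, microglia, vascular and leptomeningeal cells and Cajal-Retzius cells were highest in the type so named. Exceptions among markers of the other types were Prox1, highest in Cajal-Retzius cells, Lhx6, highest in Inh-Lamp5, and Sox6, highest in oligodendrocyte precursors. Reln and Ndnf, taken as markers of both Lamp5 and Cajal-Retzius cells, were higher in Cajal-Retzius cells (3278 and 856 CPM) than in Inh-Lamp5 (1196 and 157 CPM). Lamp5 itself was highest in Inh-Lamp5. Reads of D2 were mapped to a copy of mm10 in which only single bases were exchanged. Of the 33902 symbols, 24691 had counts in both strains, so strain, reference and gene list cannot be told apart.

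The first comparison asked which members differed between the strains when all cell types of a library were summed. Values are CPM (counts scaled to a common library total with TMM factors), and a member was called at an adjusted p under 0.05. Of 55 members, 49 passed the filter on low counts, 13 were higher and 14 lower in D2. Over all symbols with counts in both strains, 17.7% were called higher and 18.4% lower, and over every row tested 46.7% were called in either direction. Of the 49 members tested, 45 would have passed on either strain alone, and 10 of these were higher and 13 lower. Both libraries of D2 were above both of B6 for 22 members (34.6% of all symbols with counts in both strains) and below for 17 (32.9%). Of these 45, 11 were called and differed at least 2-fold, as did 8.30% of all symbols with counts in both strains and 3.78% of the 291 other numbered Zfp genes tested. A further 4 members were called at that size, but each passed the filter only through the strain where it was high. The filter thus fixed their direction, though not the size, and they are kept apart from the 11. With these 4 included, 9 were higher and 6 lower. The median log2 fold change was 0.09 for the members, 0.01 for all symbols with counts in both strains and 0.13 for the other numbered Zfp genes. In bulk sums such as these, fewer nuclei that use a gene and less RNA per nucleus cannot be told apart.

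Members higher in D2 ranged from abundant to barely detected transcripts. Zfp949 (chr9:88548020-88571061, plus strand), which lies alone, measured 35.4 and 31.0 CPM in the B6 libraries and 93.6 and 94.6 CPM in the D2 libraries. It was 2.84-fold higher in D2 (log2 fold change 1.50, SE 0.08, edgeR adjusted p = 6.14e-10). Zfp951 (chr5:104813169-104860070, minus strand) measured 4.90 and 4.40 CPM in B6 and 27.9 and 27.5 CPM in D2. For both genes each D2 library lay far above each B6 library, and the 2 libraries of a strain lay close together. The fold of Zfp951 was 5.96 (log2 fold change 2.57, SE 0.10, edgeR adjusted p = 3.32e-11).

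Zfp947 (chr17:22144359-22166190, minus strand) measured 0.999 and 0.966 CPM in B6 and 6.26 and 6.76 CPM in D2, with a log2 fold change of 2.73 (SE 0.17, edgeR adjusted p = 4.35e-09). Zfp992 (chr4:146449023-146470292, plus strand) measured 0.603 and 0.501 CPM in B6 and 5.79 and 5.43 CPM in D2, with a log2 fold change of 3.34 (SE 0.19, edgeR adjusted p = 2.06e-09). Its neighbour Zfp993 (chr4:146610961-146658160, plus strand) had 9 and 10 counts in B6 and 121 and 98 counts in D2. These genes were near the detection limit in B6 and low but plain in D2. The log2 fold change of Zfp993 was 3.68 (SE 0.27), and that gene, Zfp936 and Zfp981 passed the filter through D2 only. Zfp936, on chromosome 7, had 8 and 13 counts in B6 and 73 and 76 in D2. Zfp981, on chromosome 4, had 3 and 0 counts in B6 and 22 and 15 in D2, a ratio of 14.3 per library total (exact binomial 95% interval of counting error 4.54 to 72.6).

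Smaller differences in the same direction were measured for Zfp960 (log2 fold change 1.23, SE 0.18), Zfp991 (1.14, SE 0.23), Zfp994 (0.37, SE 0.11), Zfp958 (0.32, SE 0.09) and Zfp938 (0.30, SE 0.09). The calls of the last 3 were lost without 1 library. Leaving out D2 library 2 gave Zfp994 an adjusted p of 0.058. Leaving out B6 library 3 or D2 library 3 gave Zfp958 0.081 and 0.093, and Zfp938 0.10 and 0.13.

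Members lower in D2 included 3 with more than a 5-fold difference. Zfp982 (chr4:147492417-147513486, plus strand), known as an embryonic stem cell factor, had 142 and 101 counts in B6 and 5 and 6 counts in D2. Its log2 fold change was -4.26 (SE 0.35), and it passed the filter through B6 only, so no p is given. Zfp963 (chr8:69741639-69749970, minus strand) measured 6.95 and 6.66 CPM in B6 and 0.728 and 0.769 CPM in D2, with a log2 fold change of -3.18 (SE 0.17, edgeR adjusted p = 1.24e-09), a direction that turned when the counts of an overlapping gene were added. Zfp934 (chr13:62479827-62571199, minus strand) measured 14.7 and 16.2 CPM in B6 and 3.07 and 2.67 CPM in D2, with a log2 fold change of -2.43 (SE 0.13, edgeR adjusted p = 7.59e-10). Of the 3, only Zfp934 both passed the filter in each strain and kept its direction when overlapping genes were added.

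The other members that were lower in D2 differed less. Zfp943 (chr17:21962552-22071168, plus strand) measured 31.0 and 32.3 CPM in B6 and 14.7 and 15.7 CPM in D2, 2.09-fold lower in D2. Zfp942, whose start lies 88 bases from that of Zfp943 on the other strand, measured 25.8 and 26.8 CPM in B6 and 28.7 and 30.6 CPM in D2 (log2 fold change 0.17, SE 0.08, edgeR adjusted p = 0.090). The neighbouring pair thus gave a called decrease for one gene and no call for the other. Zfp970 (chr2:177464733-177478129, plus strand) measured 2.92 and 2.85 CPM in B6 and 1.17 and 1.54 CPM in D2, with a log2 fold change of -1.10 (SE 0.19). Zfp933 measured 51.4 and 45.1 CPM in B6 and 29.0 and 31.0 CPM in D2 (log2 fold change -0.69, SE 0.08). Zfp950, which gave the most counts of all members, measured 128 and 139 CPM in B6 and 102 and 95.6 CPM in D2 (log2 fold change -0.43, SE 0.07). No libraries of different strains overlapped in any of these, Zfp942 included. Zfp961, Zfp977 and Zfp995 had log2 fold changes of -0.49, -0.45 and -0.40. The call of Zfp977 was lost without any 1 of 3 libraries (adjusted p 0.19 without B6 library 2, then 0.20 and 0.055 when D2 library 2 or D2 library 3 was left out).

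The other 22 members tested were not called, and their log2 fold changes lay between -0.35 and 0.35. Zfp941, among the 5 members with most counts, measured 30.3 and 31.2 CPM in B6 and 32.4 and 31.9 CPM in D2 (log2 fold change 0.06, SE 0.07, edgeR adjusted p = 0.52). The 6 members under the filter, Zfp967, Zfp979, Zfp985, Zfp986, Zfp988 and Zfp990, had between 9 and 36 counts over the 4 libraries, and 5 of them lie in the chromosome 4 group.

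**Figure D1:**
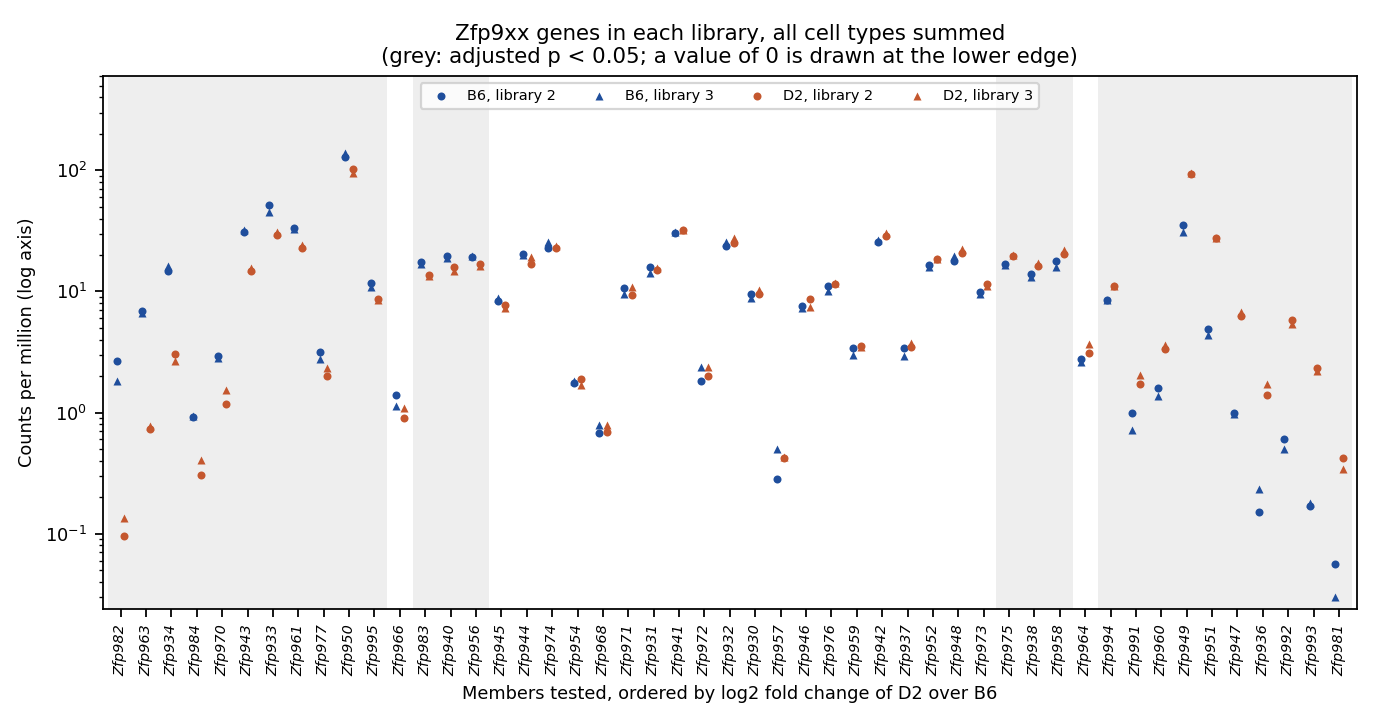
CPM (log axis) of the 49 members tested in each of the 4 libraries, all cell types summed, ordered by log2 fold change of D2 over B6. Circles are library 2 and triangles library 3 of B6 (blue) and D2 (orange), grey columns mark an adjusted p under 0.05, and a value of 0 is drawn at the lower edge. The called members sit at both ends, with Zfp982 at 2.68 and 1.81 CPM in B6 on the far left.

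Some members share their place with another gene on the same strand, and reads that fit both genes may be dropped or counted for either one. Of the 55 members, 12 had such a gene in GENCODE vM21 and 43 had none. Zfp963 had 741 counts in B6 and 72 in D2, while Gm20422, which overlaps it, had 0 in B6 and 773 in D2. With the counts of Gm20422 added, the log2 fold change of Zfp963 turned from -3.18 to 0.37 (SE 0.12, edgeR adjusted p = 0.018). Zfp956, called lower in D2 at a log2 fold change of -0.23, turned to 0.89 (SE 0.08) when the 1856 D2 counts of Zfp783 were added, a gene with 0 counts in B6. Its call was also lost when any 1 of the 4 libraries was left out (edgeR adjusted p between 0.086 and 0.19). No direction for the locus can be read for Zfp963 or Zfp956. Adding overlapping genes left Zfp934 at -2.29 (SE 0.12), Zfp949 at 1.51 (SE 0.08) and Zfp984 at -0.96 (SE 0.25). Zfp973, not called at 0.21, was called at 0.31 (SE 0.09) when Gm14305 was added. Among the 43 members without such an overlap, 11 were higher and 8 lower in D2, where 17.7% and 18.4% of all symbols with counts in both strains were called. The 11 include Zfp936, Zfp981 and Zfp993 and the 8 include Zfp982, which passed the filter only through the strain where they were high.

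In some groups of neighbours, among them those of chromosomes 4 and 17, the strain differences pointed both ways. Over all symbols with counts in both strains, 17.7% were called higher and 18.4% lower. On chromosome 4, 7 of 12 members were tested, 4 were higher and 3 lower in D2, from -4.26 to 3.69 on the log2 scale. Of these, Zfp981, Zfp993 and Zfp982 passed the filter only through the strain where they were high, so their direction was fixed by it. Both ends of the range belong to such members, Zfp982 and Zfp981. Among the others, Zfp991 (1.14) and Zfp992 (3.34) were higher, and Zfp933 (-0.69) and Zfp984 (-1.38) lower. On chromosome 17, all 10 were tested, 2 were higher and 3 lower, from -1.06 (Zfp943) to 2.73 (Zfp947). On chromosome 2 only Zfp970 was called among 7 tested, and it was lower. On chromosome 7, a group of 4 had 2 higher and 1 lower, and 1 of the 2 higher, Zfp936, passed the filter through D2 only. The other group there, of 2, had 1 lower. On chromosome 8 the only call among 3 was Zfp963, for which no direction of the locus can be read. Of the 16 members that lie alone, 5 were higher and 4 lower in D2.

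The second comparison asked how the members vary across the cell types of the hippocampus. Of 44 members tested across all 17 types with library as a block, 39 varied (edgeR adjusted p under 0.05), against 96.7% of all symbols with counts in both strains. The 5 without a call were Zfp930, Zfp933, Zfp954, Zfp958 and Zfp970. Together the members made up 1041 ± 71.2 CPM (SD, n = 4 libraries) in vascular and leptomeningeal cells (NN-VLMC), 993 ± 33.1 in oligodendrocyte precursors (NN-OPC), 916 ± 62.8 in microglia (NN-MGC) and 908 ± 40.0 in Cajal-Retzius cells (CR-CR). Inhibitory types and astrocytes followed with means between 764 and 806 CPM, and CA3 (606 ± 23.5 CPM) and Exc-CA1-Fras1 neurons (556 ± 38.0 CPM) were lowest. Among the 4 highest types, the libraries of each overlapped with those of the next in this order. Of the 44 members whose mean reached 1 CPM, 13 had their highest mean in CR-CR, 11 in NN-MGC, 9 in NN-VLMC and 3 in NN-OPC. CR-CR, NN-MGC and NN-VLMC are also among the shallowest columns, with between 139713 and 744129 counts each, so single values there rest on few counts.

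Neurons (excitatory, inhibitory and Cajal-Retzius types summed) were then compared with non-neuronal cells. Of 48 members tested, 8 were higher and 18 lower in neurons, against 35.7% and 37.7% of all symbols with counts in both strains. The other numbered Zfp genes gave 53 higher and 135 lower of 289, so both sets had more genes lower than higher in neurons. Zfp941 (chr7:140807449-140822178, minus strand) was the member most enriched in neurons. It measured 32.8 and 34.3 CPM in neurons of B6 and 36.1 and 38.2 CPM in neurons of D2, and 10.0, 11.8, 9.58 and 7.27 CPM in the non-neuronal cells of the same libraries (log2 difference 2.03, SE 0.12, edgeR adjusted p = 2.11e-06). Zfp977 (0.89, SE 0.25), Zfp995 (0.74, SE 0.11), Zfp940 (0.70, SE 0.09) and Zfp956 (0.59, SE 0.11) were the next highest in neurons among called members whose mean reached 1 CPM. In B6 library 2, Zfp977 was nearly level between the classes (3.12 CPM in neurons, 3.06 in non-neuronal cells). Zfp956 was so in B6 library 3 (19.5 and 19.1 CPM). In D2 each neuronal value of both genes was above each non-neuronal one.

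The members lower in neurons included Zfp945, at 6.36 ± 0.711 CPM in neurons and 17.4 ± 1.40 CPM in non-neuronal cells (SD, n = 4 libraries; log2 difference -1.29, SE 0.11), and Zfp959, at 2.60 ± 0.218 and 7.59 ± 1.58 CPM (-1.37, SE 0.16). Zfp934, Zfp982 and Zfp984 were lower in neurons in the fit with library as a block, at -1.47, -1.61 and -1.53, and all 3 also differed between the strains. For Zfp934, B6 neurons held 11.0 and 11.6 CPM and B6 non-neuronal cells 36.8 and 41.3 CPM, while the D2 values were 2.54 and 2.11 in neurons and 6.38 and 5.68 in non-neuronal cells. The order of the classes was thus the same in each strain. Zfp984 was 11.7 and 16.1 CPM in B6 microglia, from 6 and 12 counts. Without microglia and NN-VLMC its log2 difference was -0.54 (edgeR adjusted p = 0.28), so its call rested on those types.

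Among neurons, 47 members were tested between excitatory and inhibitory types: 8 were higher and 16 lower in excitatory neurons, against 29.2% and 30.0% of all symbols with counts in both strains. Zfp941 again showed the clearest pattern. It measured between 69.4 and 74.6 CPM in inhibitory neurons of the 4 libraries and between 26.9 and 31.7 CPM in excitatory ones (log2 difference -1.24, SE 0.05, edgeR adjusted p = 6.96e-10). By type it was highest in Inh-MGE at 84.0 ± 5.66 CPM (SD, n = 4), then in Inh-CGE at 59.9 ± 7.17 and Exc-CA1-Camk2d at 50.7 ± 6.75, and lowest in oligodendrocytes at 6.93 ± 2.69. Every Inh-MGE library was above every library of the other types named, while those of Inh-CGE and Exc-CA1-Camk2d overlapped. Zfp946 (-1.04, SE 0.10), Zfp983 (-0.90, SE 0.09), Zfp945 (-0.69, SE 0.11) and Zfp982 (-2.29, SE 0.30) were also lower in excitatory neurons.

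On the excitatory side, Zfp995 measured 12.7 and 12.3 CPM in excitatory neurons of B6 and 9.42 and 10.2 in those of D2, against values between 5.18 and 7.40 CPM in inhibitory neurons (log2 difference 0.81, SE 0.11, edgeR adjusted p = 6.01e-05). Every excitatory value of this gene was above every inhibitory value. Zfp960 had a larger log2 difference of 1.08 (SE 0.28), but in B6 the classes measured 1.50 and 1.39 against 1.41 and 0.854 CPM, and its call was lost in B6 alone (0.43, adjusted p = 0.40). Zfp994 (0.35, SE 0.12), Zfp943 (0.29, SE 0.10) and Zfp973 (0.29, SE 0.10) completed the 5 largest among called members whose mean reached 1 CPM, and each lost its call in B6 alone, in D2 alone or both. Of the 8 higher members, 1 was called by DESeq2, and 4 were called without B6 library 3.

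**Figure D2:**
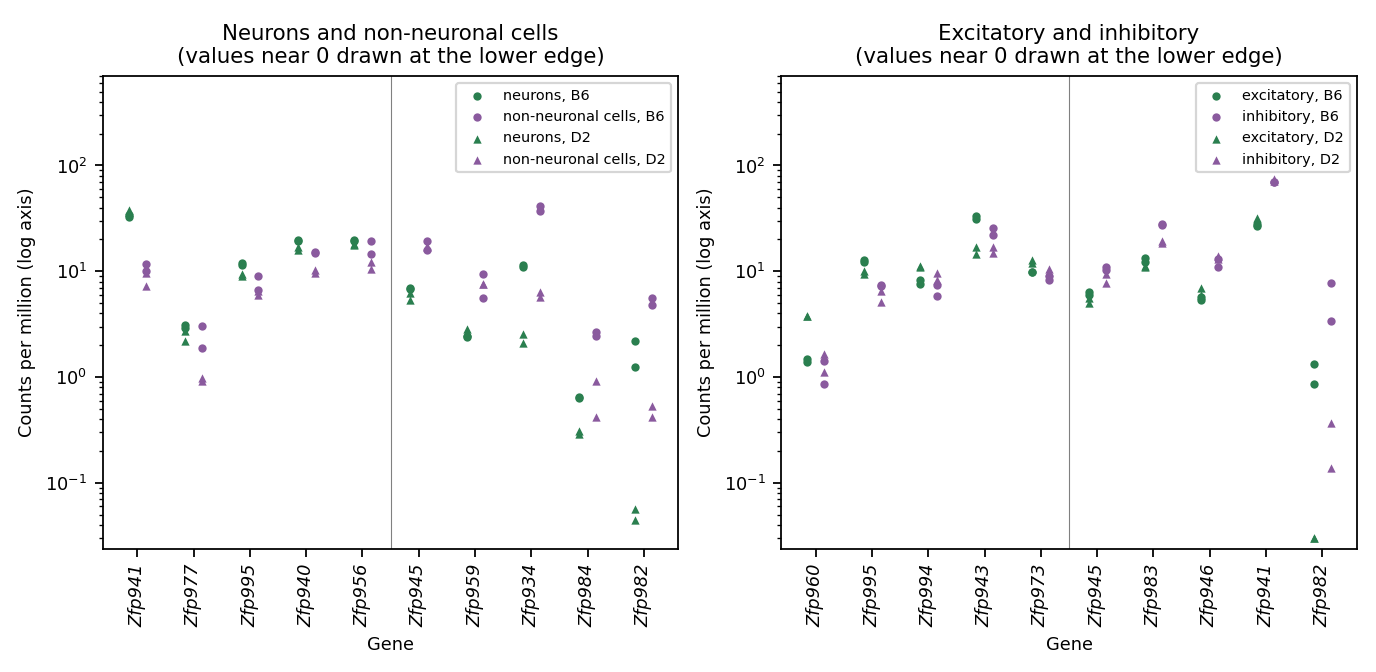
CPM (log axis) of the named members in neurons (green) and non-neuronal cells (purple) on the left, and in excitatory (green) and inhibitory (purple) neurons on the right, in each library; circles are B6 and triangles D2. Genes left of the grey line were higher in the first class; the 4 inhibitory values of Zfp941 lie together between 69.4 and 74.6, well above its excitatory values.

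The strain difference was next taken within each cell type. There were 525 tests of a member in a type, over 45 members, of which 71 were called higher and 73 lower in D2. Over the tests of all symbols with counts in both strains, 7.26% were called higher and 9.40% lower. Calls were made for 28 members, and 11 members were called in at least 5 types. Zfp949 was higher in D2 in 16 of 17 types, Zfp951 in 15 of 16 tested and Zfp947 in all 10 tested. Zfp934 was lower in all 15 types tested, Zfp943 in 11 of 16, and Zfp933 and Zfp950 in 10 of 17 each. For each of these 7 the log2 fold change had the same sign in every type tested, called or not. The filter can be passed in a type through 1 strain alone. Zfp947 had 53 and 54 counts in the B6 libraries over all types, too few to pass on B6 in each of its 10. Zfp951 (260 and 246 in B6) and Zfp934 (160 and 118 in D2) were also spread thin in their low strain. Where such a member passed only through its high strain, its direction was fixed by the filter. The types of one library share its animals and preparation, so they are not separate replicates of the strain.

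**Figure D3:**
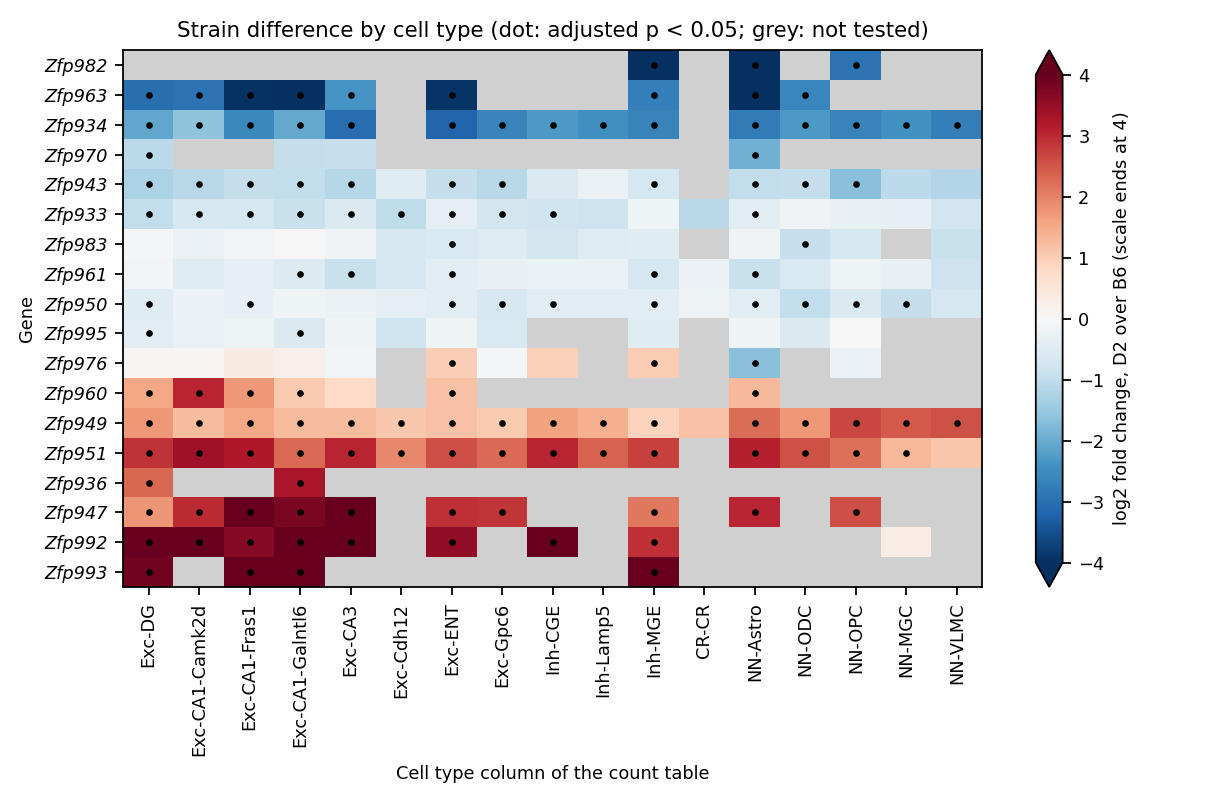
Log2 fold change of D2 over B6 (colour, scale ends at 4) of the 18 members called in at least 2 cell types in 1 direction, by cell type; a dot marks an adjusted p under 0.05 and grey a member not tested in that type. Rows such as Zfp934, Zfp949 and Zfp951 have 1 colour throughout, and Zfp976 has both.

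The size of the difference still varied with the type. For Zfp949 it ran from 0.92 in Inh-MGE (42.2 and 44.9 CPM in B6, 79.3 and 90.5 in D2) to 2.66 in NN-OPC (27.3 and 25.7 CPM in B6, 168 and 165 in D2). The B6 values of Zfp949 lay between 22.2 and 54.2 CPM in every type, while the D2 values ranged from 70.0 to 174 CPM. For Zfp951 it ran from 1.12 in NN-VLMC, not called, to 3.40 in Exc-CA1-Camk2d. Microglia had the highest mean Zfp951 level in both strains, at 36.9 and 43.0 CPM in B6 and 84.2 and 108 CPM in D2. In NN-VLMC the B6 libraries had 11 and 5 counts of Zfp951 and gave 48.9 and 10.4 CPM, on both sides of the D2 value of 38.8 and below that of 64.2.

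A fit with an interaction term asked whether the strain difference itself was larger in neurons or in non-neuronal cells. It was called for 5 of 49 members (10 at an unadjusted p under 0.05), against 8.00% of all symbols with counts in both strains. DESeq2 called 2 of the members. Zfp949 measured 34.8 and 30.8 CPM (B6) and 84.8 and 87.2 CPM (D2) in neurons, and 34.4 and 30.2 CPM (B6) and 150.0 and 144 CPM (D2) in non-neuronal cells. The B6 levels were alike in both classes, and the difference between the strains was smaller in neurons by 0.90 on the log2 scale (interaction -0.90, SE 0.10, edgeR adjusted p = 6.99e-05).

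Zfp992 differed the other way. In neurons it measured 0.320 and 0.125 CPM in B6 and 5.70 and 5.30 CPM in D2. In non-neuronal cells it measured 2.37 and 2.57 CPM in B6 and 6.38 and 6.87 CPM in D2 (interaction 3.10, SE 0.45, edgeR adjusted p = 0.000549). Its mean was highest in microglia in both strains, with 21.4 and 22.9 CPM in B6 (11 and 17 counts) and 25.0 and 27.0 CPM in D2 (11 and 16 counts). Over all cell types the B6 libraries held 32 and 28 counts of Zfp992. Its B6 level in non-neuronal cells thus rested largely on microglia, and the interaction without microglia was not tested. The strain difference in microglia was 0.29 (SE 0.38, edgeR adjusted p = 0.74), which does not show that the strains were alike there. In Exc-CA3 the same gene had no count in either B6 library and 17 and 25 counts in D2, and in Exc-DG it had 2 and 1 counts against 57 and 44. The difference between microglia and those types was not tested on its own.

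Zfp993 showed an interaction of 2.64 (SE 0.71), with 0.0854 and 0.0835 CPM in B6 neurons and 0.696 and 0.700 CPM in B6 non-neuronal cells. It passed the strain filter through D2 only, with 9 and 10 counts in B6 over all cell types, so no p is given. The interaction call of Zfp993 was also lost without any 1 of 3 libraries (B6 library 2, B6 library 3 or D2 library 2). Zfp975 and Zfp976, neighbours on chromosome 7, measured higher in D2 in neurons and lower in D2 in non-neuronal cells. The strain difference within non-neuronal cells was not tested on its own. By type the signs were mixed, with a positive log2 fold change in 7 of 11 types tested for Zfp976 and 12 of 15 for Zfp975. Zfp976 measured 11.2 and 9.36 CPM (B6) and 12.5 and 13.2 CPM (D2) in neurons, but 9.74 and 13.1 CPM (B6) and 5.55 and 5.95 CPM (D2) in non-neuronal cells (interaction 1.23, SE 0.24, edgeR adjusted p = 0.00548). By type, Zfp976 was called higher in D2 in Exc-ENT and Inh-MGE and lower in astrocytes, where it had 27 and 47 counts in B6 and 11 and 14 in D2. Zfp975 had an interaction of 0.68 (SE 0.16, edgeR adjusted p = 0.020), which was lost without D2 library 3 (adjusted p = 0.23).

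**Figure D4:**
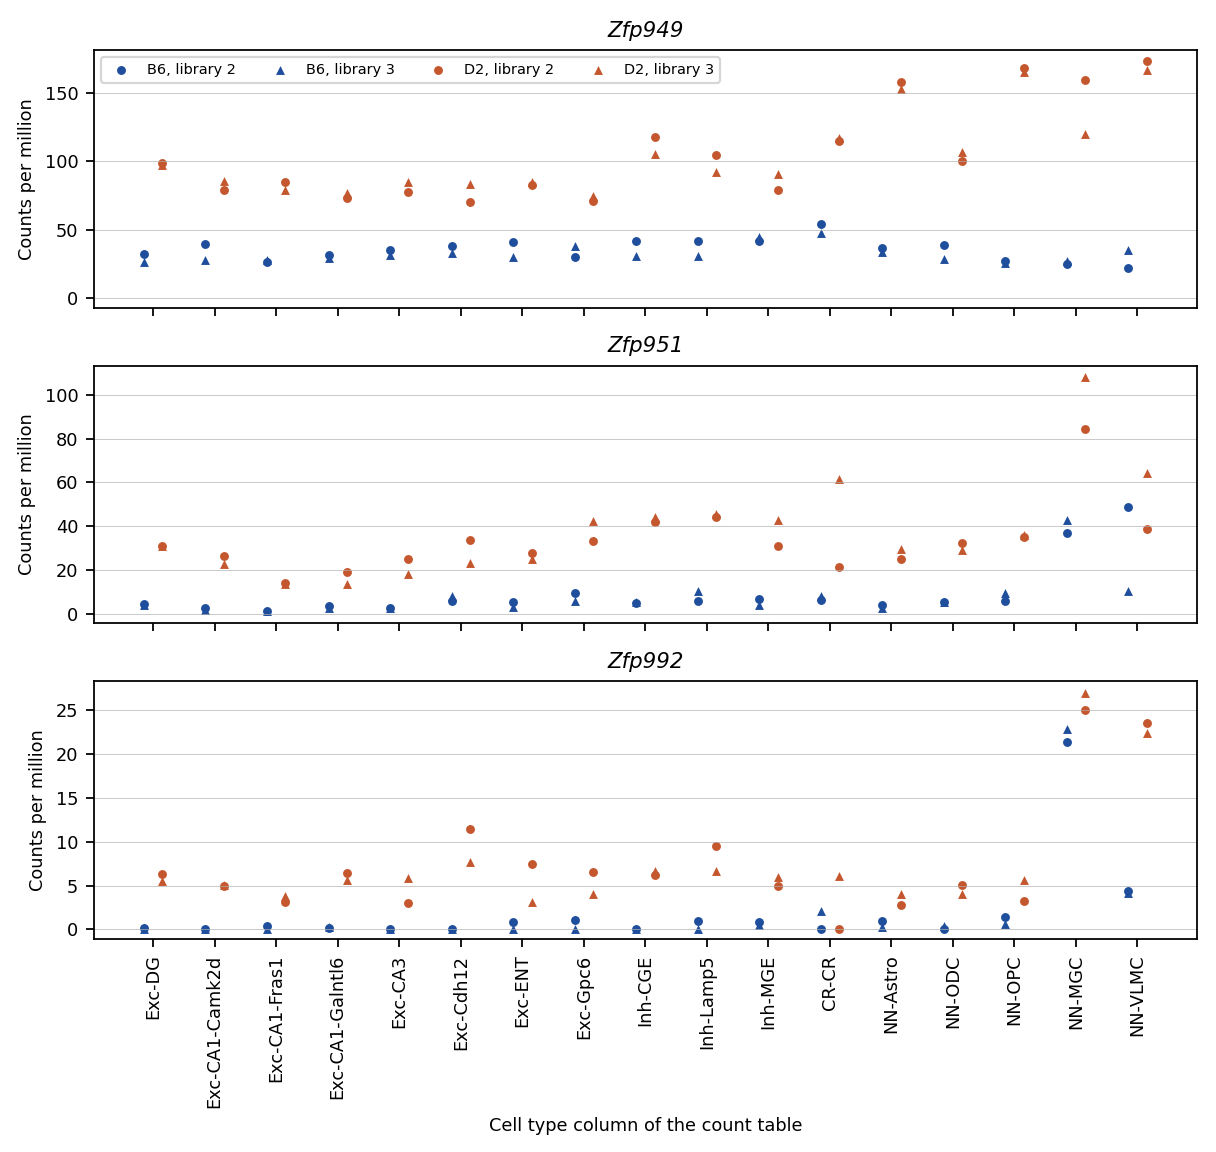
CPM of Zfp949, Zfp951 and Zfp992 in each of the 17 cell type columns, for B6 (blue) and D2 (orange), circles for library 2 and triangles for library 3. The D2 points of Zfp949 lie above its B6 points in every type, and those of Zfp992 do not in CR-CR, while in NN-MGC the Zfp992 values of the strains lie near each other, between 21.4 and 27.0.

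Chromatin accessibility at the members' starts was a readout that the choice of members did not use. Peaks of the snATAC-seq table, which the authors called per sample and merged, were taken where they overlapped 1 kb on either side of a GENCODE start. This gave 38 peaks for 37 members, with none for the other 18. Of the 38, 6 were higher and 6 lower in D2 (17 at an unadjusted p under 0.05), against 5.49% and 5.53% of 300819 peaks. Those are all peaks tested, not matched to gene starts or to the depth of the member peaks, so no excess at members can be read from these shares. Log2 fold changes of the uncalled peaks lay between -0.18 and 0.33.

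The Zfp951 start peak (chr5:104859650-104860272, covering the start and part of the promoter printed above) had 322 and 283 counts in B6 and 0 and 0 in D2, at least 240-fold lower against a floor of 3 counts over the 2 D2 libraries. A second peak inside the gene, 330 bases away (chr5:104858657-104859319), had 19 and 16 counts in B6 and 124 and 170 in D2 (log2 fold change 2.84, SE 0.24, edgeR adjusted p = 1.19e-16). The 2 peaks of this gene thus went opposite ways, and the transcript was higher in D2. The Zfp970 start peak (chr2:177464621-177465247) had 100 and 123 counts in B6 and 0 and 0 in D2, at least 88.3-fold lower, and the transcript was lower in D2. A count of 0 here says that no read was placed in that interval, and whether the D2 reference allowed one was not tested.

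At Zfp960 the start peak (chr17:17062967-17064696) had 1513 and 1572 counts in B6 and 3670 and 4362 in D2 (log2 fold change 1.17, SE 0.06, edgeR adjusted p = 1.48e-29), beside a transcript difference of 1.23. Zfp994 (-1.04, SE 0.07) had a lower start peak and a higher transcript in D2. Zfp957 had a higher start peak (1.33, SE 0.10) with 15 and 28 RNA counts in B6 and 22 and 19 in D2. At Zfp943 and Zfp942 a single peak (chr17:21961209-21963470) covers both starts, and its log2 fold change was -0.02 (adjusted p = 0.93) beside the lower Zfp943 transcript. Over all members, peak and transcript were both called for 10 pairs, in the same direction in 4 and in opposite directions in 6. A further 10 members had a called transcript and an uncalled peak, among them Zfp949 (peak log2 fold change 0.16, adjusted p = 0.065). The snRNA-seq and snATAC-seq libraries came from separate preparations, and NeuN was not used in the snATAC-seq sort, so the mix of cell types behind the 2 readouts differs.

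**Figure D5:**
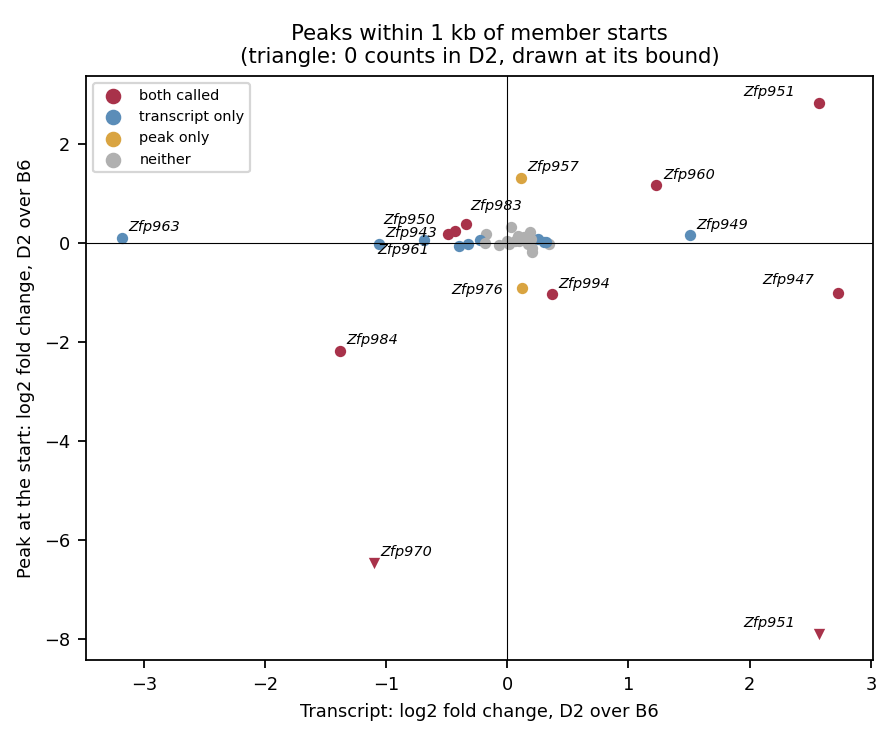
Log2 fold change of D2 over B6 for the transcript (x axis) and for the peak within 1 kb of the start (y axis), for members tested in both; colours give which of the 2 was called. Triangles are the Zfp951 and Zfp970 peaks with 0 counts in D2, drawn at their bound; most points lie near 0 on the y axis, while the transcripts spread from -3.18 to 2.73.

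The last comparison took the genes that KRAB zinc finger proteins work through. Of 28 genes of this corepressor pathway, 1 was higher and 3 lower in D2, against 17.7% and 18.4% of all symbols with counts in both strains. Cbx3, a heterochromatin protein gene, was higher (log2 fold change 0.22, SE 0.08), and the lower ones were Ehmt1 (-0.26, SE 0.07), a histone methyltransferase gene, Smarcad1 (-0.23, SE 0.07), a chromatin remodeller gene, and Atf7ip (-0.23, SE 0.07), whose product stabilises SETDB1. Trim28 itself had a log2 fold change of 0.19 (SE 0.09, edgeR adjusted p = 0.095) and Setdb1 of -0.07 (SE 0.07, edgeR adjusted p = 0.46). Between neurons and non-neuronal cells, 11 of the 28 were higher and 10 lower in neurons, shares near the 35.7% and 37.7% of all symbols with counts in both strains. Trim28 (log2 difference 0.48, SE 0.11) and Setdb1 (0.46, SE 0.08) were higher in neurons, and Atf7ip (-0.89, SE 0.07) and Resf1 (-0.90, SE 0.06) were lower.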

How the data were processed

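The members and gene lists were chosen with earlier results of these data known. The authors mapped reads with Cell Ranger 6.0.2 (introns kept) or Cell Ranger ATAC 2.0.0, using mm10 for B6 reads and, for D2 reads, mm10 with D2 single-base variants put in; the GENCODE release is not given in the sources used here. They removed doublets, assigned cell types and deposited raw counts per cell type and library, for RNA from a 3′ kit. The tables number libraries 2 and 3 and the labels replicates 1 and 2, so columns were placed in a strain only, and which sample of a strain a library is remains unknown; no value depends on it. The 16 methylation samples were not analysed here.

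Counts were summed over cell types, or over classes of them, and tested with edgeR 4.0.16 (R 4.3.3) by TMM normalization, filterByExpr (peaks: at least 10 counts) and a quasi-likelihood test, with Benjamini-Hochberg adjustment over all rows tested. Class comparisons and the fit over types had library as a block, and the strain fits had no covariate. The scripts were tested on simulated data. The biological coefficient of variation was 0.0683 for RNA and 0.0560 for peaks, and snATAC-seq library totals were 90684494 to 122322471. The smallest p an exact permutation of 2 and 2 libraries can give is 0.333. CPM within a cell type were scaled by that column's total. Intervals and floors cover counting error only. Gene positions are from GENCODE vM21.

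Genes were named by a rule: at adjusted p under 0.05 and a mean of at least 1 CPM, the 10 largest strain differences in each direction with strains not overlapping, and the 5 largest class differences in each direction; the 5 members with most counts; the members called in most types, for the interaction, or with called start peaks. Zfp942, the overlap cases, the low-count members and those under the filter were named after their values were seen. DESeq2 1.42.0, another normalization, other filters, left-out libraries, single strains and summed overlapping genes were the alternatives; the last was added after seeing the data.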

Additional observations from a re-analysis of the deposited data

Results flagged for a closer look

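The strain difference of 5 members differed between neurons and non-neuronal cells by an interaction term (edgeR, adjusted p under 0.05), 5 of 49 tested against 8.00% of all symbols with counts in both strains, and DESeq2 called 2. Taken as the log2 difference in neurons minus that in non-neuronal cells, it was -0.90 for Zfp949, 3.10 for Zfp992, 1.23 for Zfp976, 0.68 for Zfp975 and 2.64 for Zfp993. Zfp949 had a smaller D2 excess in neurons, and Zfp992 and Zfp993 a larger one. The B6 counts of Zfp992 in non-neuronal cells came largely from microglia. Zfp975 and Zfp976 measured higher in D2 in neurons and lower in non-neuronal cells, but the strain difference within non-neuronal cells was not tested on its own. The call of Zfp993, which passed the strain filter through D2 only, was lost without B6 library 2, B6 library 3 or D2 library 2, and that of Zfp975 without D2 library 3. With 2 libraries per strain, single libraries within a strain were not examined for outliers.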

How the results depend on the processing

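Over 58 gene or peak differences, 572 of 629 values under an alternative kept their direction and their side of the threshold, 54 kept the direction and lost the call, 1 gained it (Zfp973), and 2 reversed with overlapping genes added: Zfp963, from -3.18 to 0.37, and Zfp956, from -0.23 to 0.89. The counts of members called moved most in smaller sums or with DESeq2. In Exc-DG alone 8 members were higher and 7 lower in D2 (13 and 14 in all types), and among the 43 members without an overlap 8 were lower. DESeq2 called 42 lower in D2 in single cell types (73 with edgeR), 1 higher and 10 lower in excitatory neurons (8 and 16), and 2 interactions (5). In D2 alone 5 were higher in excitatory neurons. Without 1 library each, excitatory neurons had 4 to 6 higher members and 12 to 14 lower. The cause of these changes was not tested, beyond the fewer genes and counts in the smaller sums.

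Library numbers did not pair the samples: deviations from the strain mean in same-numbered libraries correlated at -0.0030 over 13130 genes. With library number as a block (replicate block), 13 members were higher and 13 lower in D2, 71 and 76 in single types, and 7 and 6 peaks. Without the block, 12 members were higher and 18 lower in neurons, 9 higher and 14 lower in excitatory neurons, and 39 varied across types. The median log2 fold change over all rows was 0.09 with TMM and 0.08 with the RLE scaling, which left 13 members higher and 14 lower. Members with few counts, such as those on chromosome 4, are limited by depth.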
